A study of Mus musculus with 35 samples.

Results

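The 8 genes described here, *Sox7*, *Sox17*, *Sox18*, *Erg*, *Fli1*, *Ets1*, *Tal1* and *Foxq1*, encode transcription factors known from vascular endothelium. They were taken by name from the 53465 genes of the bulk RNA-seq table and from the 21548 genes of the single-cell tables, where all 8 were present. The study sorted 4 populations (endothelial cells, mural cells, microglia and neural cells) from brains of wild-type mouse embryos at embryonic day 14.5. For bulk RNA-seq each population was sorted from 3 brains, which gave 12 libraries, named Ec-340, Ec-343 and Ec-346 for endothelial cells and likewise Mu for mural, Mi for microglial and N for neural cells, and values are given in this order. For scRNA-seq single cells were sorted into wells of 3 plates, and 686 cells with more than 1500 transcripts and 1 of the 4 sort gates were used: 225 endothelial cells, 210 mural cells, 128 microglia and 123 neural cells. In the well table the endothelial gate was high for PECAM1 and CD102 and low for PDGFRβ, CD41 and CD45, the mural gate high for PDGFRβ and low for PECAM1, and the microglial gate positive for CD41 and medium for CD45, while cells of the neural gate were negative for all of these. The well table's CD41-positive label for microglia differs from the study's text, which describes microglia as positive for CD11b and medium for CD45.

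Endothelial cells line the blood vessels, and their identity is held by a small set of DNA-binding proteins. The SOXF proteins SOX7, SOX17 and SOX18 bind DNA through an HMG box and act in part redundantly in vessel and lymphatic development. The ETS proteins ERG, FLI1 and ETS1 bind a short purine-rich core through the ETS domain and occupy the enhancers of most endothelial genes. TAL1 is a basic helix-loop-helix protein needed for blood and endothelial progenitors that is also known from GABAergic neurons of the midbrain and spinal cord, and FOXQ1 is a forkhead protein known from brain endothelium.

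Reads from near-identical copies could be shared between genes, so the sequences of each family were compared in the GENCODE vM21 transcripts (GRCm38). Over the whole transcripts, the longest run of bases common to a pair of the SOXF genes is 29 (*Sox17* and *Sox18*), followed by 22 (*Sox7* and *Sox17*) and 20 (*Sox7* and *Sox18*). The ETS genes resemble each other most in the stretch that encodes the DNA-binding domain, and this stretch is shown for that reason. The 85 codons most alike lie at chr16:95361076-95368655 on the minus strand in *Erg* (codons 313 to 397, in 2 exons), at chr9:32424055-32426055 on the minus strand in *Fli1* (codons 276 to 360, in 2 exons) and at chr9:32738356-32754344 on the plus strand in *Ets1* (codons 330 to 414, in 3 exons). Capitals mark the 165 of 255 bases (64.7%) common to these 3 genes.
Erg: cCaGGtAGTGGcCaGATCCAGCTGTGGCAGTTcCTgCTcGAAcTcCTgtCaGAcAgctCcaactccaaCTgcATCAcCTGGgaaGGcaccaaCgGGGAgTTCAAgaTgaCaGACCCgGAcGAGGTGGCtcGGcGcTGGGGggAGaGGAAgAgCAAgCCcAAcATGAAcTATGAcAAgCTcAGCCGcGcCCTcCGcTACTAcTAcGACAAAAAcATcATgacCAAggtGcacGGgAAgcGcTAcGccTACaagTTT
Fli1: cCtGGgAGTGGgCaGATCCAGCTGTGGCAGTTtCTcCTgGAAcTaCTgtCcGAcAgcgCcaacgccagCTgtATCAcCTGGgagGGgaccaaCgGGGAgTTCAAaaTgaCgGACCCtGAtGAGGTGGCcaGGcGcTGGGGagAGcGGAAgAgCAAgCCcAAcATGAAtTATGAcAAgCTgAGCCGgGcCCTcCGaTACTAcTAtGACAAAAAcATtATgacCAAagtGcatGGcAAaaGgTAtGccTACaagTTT
Ets1: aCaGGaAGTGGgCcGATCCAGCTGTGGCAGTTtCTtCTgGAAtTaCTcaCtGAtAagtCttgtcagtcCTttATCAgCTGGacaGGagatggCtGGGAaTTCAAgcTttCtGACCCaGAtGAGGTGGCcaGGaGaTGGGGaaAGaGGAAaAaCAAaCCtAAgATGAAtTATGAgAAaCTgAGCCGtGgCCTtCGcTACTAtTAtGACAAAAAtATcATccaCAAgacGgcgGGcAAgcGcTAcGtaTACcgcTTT

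ERG and FLI1 are the closest pair, with 96.5% of residues the same in this stretch, while ETS1 shares 69.4% with either of them. The longest run of bases common to *Erg* and *Fli1* transcripts is 22. *Fli1* and *Ets1* are neighbours on chromosome 9, 93359 bases apart and transcribed away from each other, yet, as given below, their levels differ between populations.

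Sums of 8 markers of each population were highest in its own libraries. Mural markers ran from 707209 to 762599 in mural libraries and reached 7141 elsewhere. Microglia markers ran from 268484 to 297726 in microglial libraries and reached 114 elsewhere. Neural markers ran from 101220 to 109795 in neural libraries but from 20825 to 39898 in mural libraries. The neural marker *Fabp7* had a higher mean in mural (26942) than in neural libraries (7602). The summed normalized count of 8 endothelial markers ran from 165832 to 202645 in endothelial libraries, from 3838 to 6757 in mural, from 1542 to 1784 in microglial and from 128 to 154 in neural libraries. The genes of the sorted proteins, *Pecam1* and *Icam2*, are among these markers. Libraries held 17638358 to 98414914 reads on genes. Neural libraries were made with another kit (TruSeq) than the other 3 populations (SMART-Seq v4 and Nextera XT), so that kit and population cannot be told apart in any comparison with neural cells. The single-cell sums of plate 3 rest on 6 to 14 cells per gate, and its 13 endothelial cells held 2552 CPM (the share of a gate's transcripts in the usual CPM unit) of endothelial markers against 6553 CPM in the highest plate, and 3067 CPM of mural markers against 489 and 112 CPM in the endothelial cells of plates 1 and 2. All 192 single-cell barcodes were used in more than 1 library, and 0 cell identifiers were shared between libraries.

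Against the mean of the other 3 populations, all 8 genes were higher in bulk endothelial libraries (limma on log2(normalized count + 1), adjusted p under 0.05, all genes tested together). Of the 19765 genes tested, 19.7% were called higher in this comparison. For 7 of the 8 genes the difference was over 10-fold, against 6.28% of all genes. Without the neural libraries all 8 remained higher, where 2265 of the 19441 genes tested were called higher. The log2 difference of *Ets1* then fell from 4.21 to 1.75 and that of *Fli1* from 5.32 to 2.55, both under 10-fold. That of *Tal1* rose from 2.67 to 3.97. In 6 of 8, all except *Ets1* and *Tal1*, the 3 endothelial libraries lay above the other 9, as did 6.28% of all genes. The comparison with each population in turn separated the genes further. *Sox7*, *Sox17*, *Sox18* and *Erg* were higher in endothelial cells than in each of the other 3. *Fli1* was also found in microglia, *Ets1* and *Foxq1* in mural cells, and *Tal1* in microglia and neural cells. At lower levels, *Ets1* was also found in microglia and *Fli1* in mural cells. In bulk samples, fewer cells of a type and less RNA per cell cannot be told apart.

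**Figure D1:**
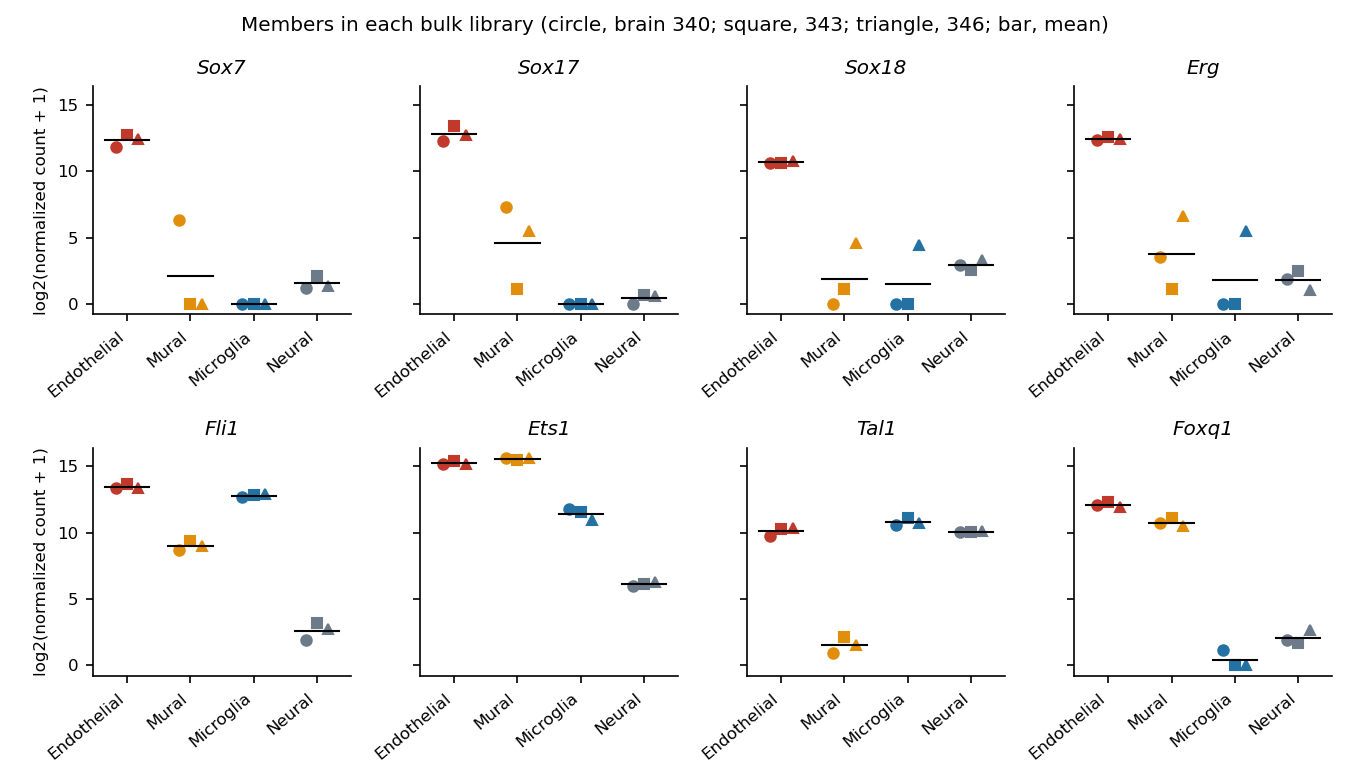
Level of each of the 8 genes in the 12 bulk libraries, as log2(normalized count + 1). Colours give the population, symbols the brain, and bars the mean of the log2 values. *Sox7*, *Sox17*, *Sox18* and *Erg* stand high in the endothelial libraries and near 0 in most others, while *Fli1*, *Ets1*, *Tal1* and *Foxq1* each have a second population at a similar or nearby level.

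*Sox17* (ENSMUSG00000025902, chromosome 1, 4490931 to 4497354, minus strand), which is known for its role in arterial endothelium, had normalized counts of 5023, 10730 and 6648 in the libraries Ec-340, Ec-343 and Ec-346. It was at 0 in all 3 microglial libraries and at 0.554 or less in the neural libraries. In the mural libraries it had 152, 1.14 and 43.2. The endothelial libraries lay far above all others, and among mural libraries Mu-340 and Mu-346 stood above Mu-343. The endothelial mean of 7467 ± 2940 (SD, n = 3) was at least 2055-fold higher than in microglia, where the bound takes 3 reads per library, and 114-fold higher than in mural cells. Against neural cells, with 3 reads in all, the ratio was 16192, with a 95% counting interval from 5540 to 78525. The log2 difference from mural cells was 8.19 ± 1.24 (SE, adjusted p = 0.000626 with limma). *Sox17* was also the SOXF gene called higher in mural than in neural libraries (log2 4.19 ± 1.24, adjusted p = 0.0144 with limma). Without the brain of Ec-340 this log2 difference of *Sox17* was 2.66 (adjusted p = 0.171 with limma), and without that of Ec-346 it was 3.86 (adjusted p = 0.155). An opposite-strand gene model, Gm37587, shares 804 exon bases with *Sox17* and had a mean of 52.1 in endothelial libraries and 0 in the other 9.

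*Sox7* (ENSMUSG00000063060, chromosome 14, 63943673 to 63950732, plus strand) had 3645, 6811 and 5342 in the endothelial libraries. It was at 0 in the 3 microglial libraries, between 1.34 and 3.32 in the neural libraries and at 79.1, 0 and 0 in the mural libraries. A single mural library thus carried nearly all *Sox7* reads found outside endothelial cells. The endothelial mean of 5266 ± 1584 (SD, n = 3) was at least 1449-fold higher than in microglia, 200-fold higher than in mural cells and 2530-fold higher than in neural cells. The log2 difference from the mean of the other 3 was 11.09 ± 1.14 (adjusted p = 2.95e-05 with limma), a value that depends on the pseudocount and the tool (8.56 to 15.96 over 12 alternatives).

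*Sox18* (ENSMUSG00000046470, chromosome 2, 181669836 to 181671640, minus strand), known for its part in lymphatic development, had 1538, 1597 and 1766 in the endothelial libraries. The 3 libraries were closer to each other than for the other SOXF genes. It was found at 4.98 to 8.72 in the neural libraries, at 23.5 in Mu-346 and at 20.1 in Mi-346, and at 1.14 or less in the other mural and microglial libraries. The endothelial mean of 1634 ± 118 (SD, n = 3) was 199-fold higher than in mural cells, 243-fold higher than in microglia and 240-fold higher than in neural cells. The log2 differences from the 3 populations lay between 7.74 and 9.20, with adjusted p from 0.000286 to 0.000643 (limma).

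*Erg* (ENSMUSG00000040732, chromosome 16, 95359169 to 95586593, minus strand), known as an ETS gene of endothelial cells, had 5183, 6196 and 5411 in the endothelial libraries. The neural libraries had 1.06 to 4.43. In the mural libraries it had 10.5, 1.14 and 96.7, and in the microglial libraries 0, 0 and 44.1. As for *Sox18*, the highest mural and microglial values were those of Mu-346 and Mi-346. The endothelial mean of 5597 ± 531 (SD, n = 3) was 155-fold higher than in mural cells, 381-fold higher than in microglia and 2058-fold higher than in neural cells. The log2 difference was 8.70 ± 1.58 from mural cells (adjusted p = 0.00196 with limma), 10.62 ± 1.58 from microglia and 10.66 ± 1.58 from neural cells.

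*Fli1* (ENSMUSG00000016087, chromosome 9, 32422204 to 32542861, minus strand), an ETS gene known from both endothelium and blood cells, had 10360, 12905 and 10738 in endothelial libraries and 6439, 7222 and 7647 in microglial libraries. The mural libraries had 416, 653 and 519, and the neural libraries 2.67 to 8.31. The 4 populations did not overlap, and the order was endothelial, microglial, mural and neural. All 3 endothelial libraries lay above all 3 microglial libraries, with a ratio of means of 1.60, but limma did not call this difference (log2 0.67 ± 0.32, adjusted p = 0.135). Over 12 alternatives this difference ran from 0.59 to 0.77, and 3 of them called it, a pseudocount of 10 (*Fli1* adjusted p = 0.0354 with limma), DESeq2 (adjusted p = 0.00728) and the fit without neural libraries (adjusted p = 0.0304 with limma). Mural cells were 21.4-fold lower than endothelial cells (log2 4.44 ± 0.32, adjusted p = 3.02e-06) but 96.1-fold higher than neural cells (log2 6.42 ± 0.32, adjusted p = 8.16e-08, both limma). The endothelial marker sum of the mural libraries was 3838 to 6757, with none of the 8 markers at 0 in all 3 libraries but *Cldn5* and *Icam2* at 0 in at least 1, and the part of endothelial RNA in their *Fli1* level was not tested. Border macrophage markers, another myeloid type, summed to 14718 to 19131 in the microglial libraries, with none of the 5 at 0 in all 3 but *Cd163* at 0 to 61.7, and their part in the microglial level was not tested either. Of the gene models inside introns of *Fli1*, which share no exon bases with it, Gm37474 had the highest means, 1795 in endothelial and 1329 in microglial libraries.

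*Ets1* (ENSMUSG00000032035, chromosome 9, 32636221 to 32757820, plus strand), known from vascular and lymphoid cells, had 36571, 43416 and 37661 in the endothelial libraries and 50743, 46295 and 50126 in the mural libraries. The microglial libraries had 3522, 3064 and 1951, and the neural libraries 61.4 to 76.1. Every mural library was above every endothelial one, by a ratio of means of 1.25, but the difference was not called (log2 -0.33 ± 0.19, adjusted p = 0.240 with limma). Both lay above microglia, mural cells by 17.2-fold (log2 microglia minus mural -4.15 ± 0.19, adjusted p = 5.63e-08 with limma) and endothelial cells by 13.8-fold (log2 3.82 ± 0.19, adjusted p = 9.05e-08). Microglia in turn were 41.3-fold above neural cells (log2 5.31 ± 0.19, adjusted p = 7.42e-09 with limma).

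*Foxq1* (ENSMUSG00000038415, chromosome 13, 31556134 to 31560976, plus strand) had 4270, 5043 and 3861 in the endothelial libraries and 1674, 2187 and 1429 in the mural libraries. It was found with 1 read in the microglial libraries together, and at 2.22 to 5.28 in the neural libraries. The endothelial and mural libraries did not overlap. The ratio of their means was 2.49, which did not pass the threshold (log2 1.33 ± 0.49, adjusted p = 0.0680 with limma). With a pseudocount of 10, with edgeR and with DESeq2 it did, with log2 differences of 1.33, 1.26 and 1.32. Mural cells were 520-fold above neural cells (log2 8.69 ± 0.49, adjusted p = 2.00e-07 with limma). Of the endothelial markers, *Cldn5* had 0 to 147 and *Cdh5* 0.939 to 44.5 in the mural libraries against 51368 to 64664 and 6372 to 12635 in the endothelial libraries. *Esam*, another of the 8 markers, had means of 4293 and 13097. Fibroblast markers summed to 5779 to 7417 in the mural libraries and to at most 3.02 in the endothelial libraries, and the part of either cell type in the mural level of *Ets1* and *Foxq1* was not tested in the bulk libraries. A gene model on the opposite strand, A530084C06Rik, shares 3200 exon bases with *Foxq1* and was at 0 in all but the neural libraries, where its mean was 7.18.

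*Tal1* (ENSMUSG00000028717, chromosome 4, 115056426 to 115071755, plus strand) had 845, 1251 and 1336 in the endothelial libraries, 1500, 2199 and 1710 in the microglial libraries and 1067, 1063 and 1088 in the neural libraries. In mural libraries it had 0.874 to 3.42, from 7 reads in all. Endothelial and neural libraries overlapped, all 3 microglial libraries lay above them, and the mural libraries stood apart below all others. The difference between endothelial and neural cells was not called (log2 0.06 ± 0.36, adjusted p = 0.896 with limma). Nor did limma call that between endothelial cells and microglia (log2 -0.67 ± 0.36, adjusted p = 0.188), which DESeq2 called (adjusted p = 0.0429), or that between microglia and neural cells (log2 0.73 ± 0.36, adjusted p = 0.0993). The latter was called with a pseudocount of 10 (*Tal1* adjusted p = 0.0302 with limma) and with DESeq2 (adjusted p = 0.00865). Mural cells were 556-fold lower than endothelial cells (log2 8.61 ± 0.36, adjusted p = 1.89e-07 with limma) and 521-fold lower than neural cells. *Tal1* had the highest neural level of the 8, followed by *Ets1* with a mean of 68.9.

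Since red blood cell precursors express *Tal1*, erythroid markers were read beside it. The sum of 9 erythroid markers was 13284 to 34541 in endothelial libraries, 9136 to 11926 in neural libraries, 1713 to 2229 in microglial libraries and 253 to 598 in mural libraries. *Gata1* and *Klf1*, which encode erythroid transcription factors, had means of 15.4 and 22.3 in microglia and were at 0 and at 9.35 to 10.8 in the neural libraries, and at 0 and at up to 16.6 in the endothelial libraries. In the mural libraries *Gata1* was at 0 and *Klf1* at 0 to 62.8, with the highest *Klf1* mean of the 4 populations (27.5). *Gata2* and *Gata3*, which encode zinc finger proteins of GABAergic neurons as well as of blood and endothelium, were at 362 to 394 and 642 to 733 in the neural libraries. The part of erythroid RNA in the *Tal1* level was not tested.

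The *Tal1* promoter is shown because *Tal1* was found in endothelial, microglial and neural libraries and was near 0 in mural libraries. The 250 bases before its first start site lie at chr4:115056176-115056425 on the plus strand (RefSeq, GRCm38.p6). Capitals mark the letters GGAA, the core bound by ETS proteins, and GATA, that of GATA factors, on either strand.
Tal1 promoter: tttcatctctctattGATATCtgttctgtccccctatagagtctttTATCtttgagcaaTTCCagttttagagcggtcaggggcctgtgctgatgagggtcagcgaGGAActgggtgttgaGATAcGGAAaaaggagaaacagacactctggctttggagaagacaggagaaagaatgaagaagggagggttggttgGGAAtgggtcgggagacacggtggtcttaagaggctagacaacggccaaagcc

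GGAA was found at 4 places and GATA at 4, of which a pair overlaps, while ACAAT, a core bound by SOX proteins, and CANNTG, that of basic helix-loop-helix proteins, were not found. Among the 32817 promoter windows of this length, 93.4% hold GGAA, 53.6% GATA, 27.7% ACAAT and 66.2% CANNTG on either strand. Promoter sequences were matched for 2 of the 8 genes, *Tal1* and *Erg*.

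**Figure D2:**
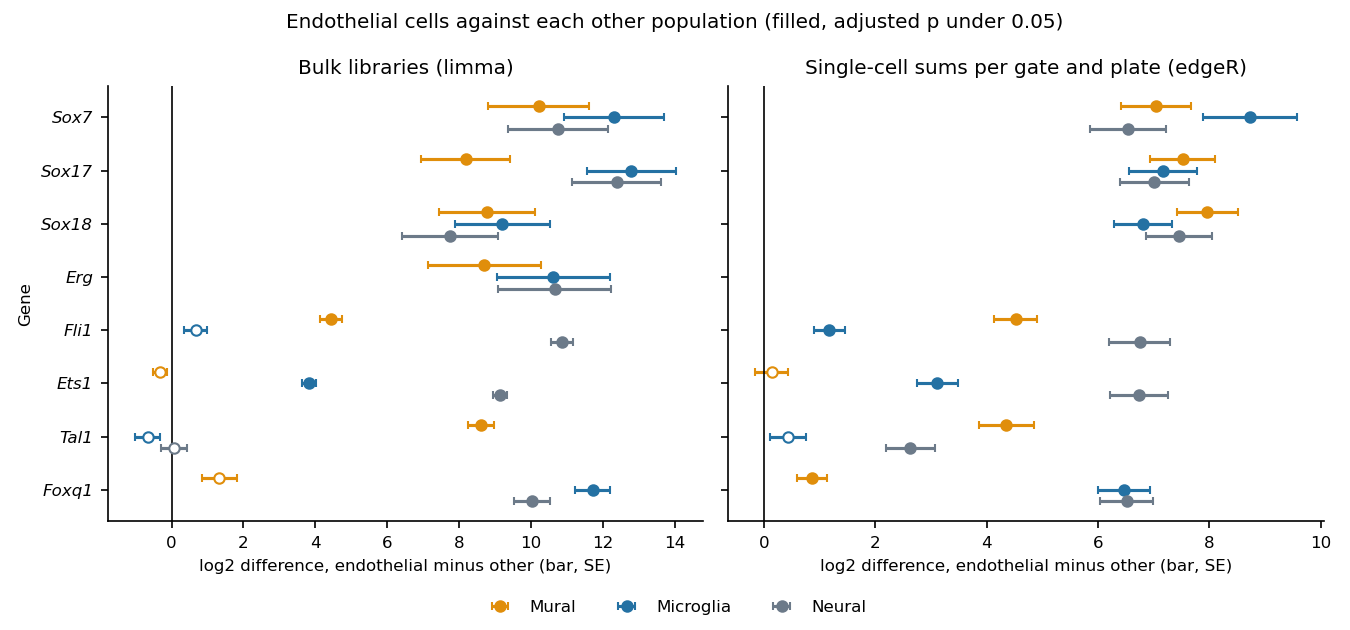
Log2 difference between endothelial cells and each other population, with its SE, in bulk libraries (left, limma) and in single-cell sums per gate and plate (right, edgeR). Filled points passed an adjusted p of 0.05. The points near 0 are *Fli1* and *Tal1* against microglia, *Ets1* and *Foxq1* against mural cells and, in bulk libraries, *Tal1* against neural cells.

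In pairs of populations without endothelial cells, 2 of the 8 genes were higher in microglia than in mural cells (*Fli1* and *Tal1*) and 3 lower (*Ets1*, *Foxq1* and *Sox17*), where 20.1% and 17.9% of all genes were called. *Sox17* was not called there without the brain of Ec-340 (log2 -3.28, adjusted p = 0.132 with limma) or without that of Ec-346 (-4.18, adjusted p = 0.167). Against neural cells 2 were higher in microglia (*Fli1* and *Ets1*) and 1 lower (*Foxq1*, at or near 0 in both), with 29.3% and 30.4% of all genes called. *Foxq1* was not called there with a pseudocount of 10 (adjusted p = 0.321), with quantile normalization (adjusted p = 0.0595), without the brain of Ec-343 (adjusted p = 0.0666) or without that of Ec-346 (adjusted p = 0.146, all limma). In mural cells 4 were higher than in neural cells (*Ets1*, *Foxq1*, *Fli1* and *Sox17*) and 1 lower (*Tal1*), with 25.8% and 28.7% of all genes called. In the comparisons of endothelial cells with one population, 6 of 8 were higher than in mural cells (14.3% of all genes), 6 of 8 than in microglia (15.3%) and 7 of 8 than in neural cells (27.1%), and none was lower, where 13.5%, 17% and 30.6% of all genes were called lower. These comparisons share the endothelial libraries.

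Per kilobase of exon, the order of the 8 genes in endothelial cells was *Ets1*, *Fli1*, *Erg*, *Sox7*, *Sox17*, *Sox18*, *Foxq1* and *Tal1*. *Ets1* had 4627 ± 434 normalized counts per kilobase (SD, n = 3) and *Fli1* 3251 ± 394. *Erg*, *Sox7* and *Sox17* followed with 1615 ± 153, 1596 ± 480 and 1565 ± 616, which lie within their spread. *Sox18* had 1008 ± 73.1, *Foxq1* 907 ± 124 and *Tal1* 261 ± 59.9. *Sox18*, with the lowest count but for *Tal1* and a short transcript of 1620 bases, thus had a mean above *Foxq1* per kilobase but below the other SOXF genes. Its libraries ran from 949 to 1090, those of *Sox7* from 1105 to 2065 and those of *Sox17* from 1053 to 2249. With the longest transcript as the length, *Ets1* had 7720 and *Sox17* 2303, and *Sox17* moved ahead of *Erg* and *Sox7*. In the other populations the gene with the highest level per kilobase was *Ets1* in mural cells (5787 ± 284), *Fli1* in microglia (2037 ± 176) and *Tal1* in neural cells (245 ± 3.11).

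**Figure D3:**
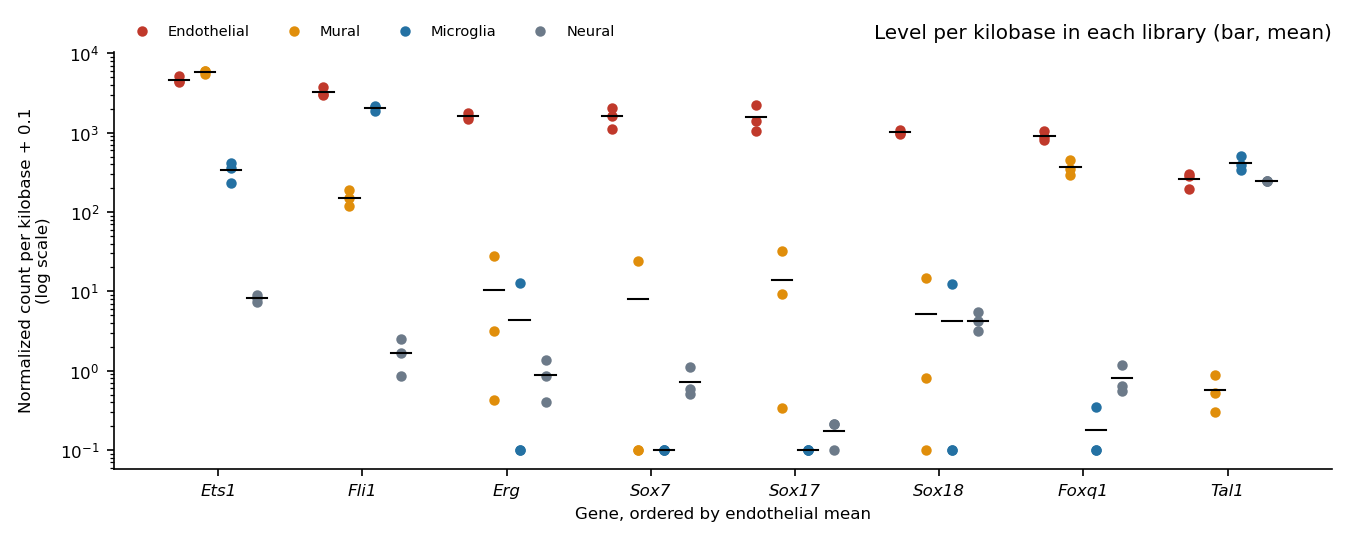
Normalized count per kilobase of exon for each gene and bulk library on a log scale, with 0.1 added so that libraries at 0 can be drawn, and bars for the mean. Genes are ordered by their endothelial mean, from *Ets1* (4627) to *Tal1* (261). The highest mean of all is that of *Ets1* in mural cells (5787), and several microglial libraries lie at 0.

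In sums of transcripts per gate and plate, 7 of the 8 genes passed the filter on low counts, and all 7 were higher in endothelial cells than in the mean of the other 3 gates (edgeR, adjusted p from 2.50e-09 to 5.74e-25), where 16.4% of the 9281 genes tested were called. For 6 of these 7 the difference was over 10-fold, against 3.02% of all genes, and for *Tal1* it was 2.47 ± 0.31 on the log2 scale. *Erg* did not pass the filter, since it was at 0 in the endothelial sum of plate 3 and in all mural and microglial sums. With no filter on low counts it was higher in endothelial cells by a log2 difference of 7.79 ± 0.51.

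By pairs of gates, 6 of the 7 genes tested were higher in endothelial than in mural cells (11.5% of all genes) and 6 than in microglia (18.7%), the exceptions being *Ets1* and *Tal1*, and all 7 were higher than in neural cells (18.3%). None of the 7 was lower against the mean of the other 3, mural cells, microglia or neural cells, where 6.96%, 9.17%, 17.5% and 18.1% of all genes were called lower. *Fli1* and *Tal1* were higher in microglia than in mural cells (18.9% of all genes) and *Ets1* and *Foxq1* lower (18.8%). *Fli1*, *Ets1* and *Tal1* were higher in microglia than in neural cells (21.2%) and 0 were lower (23.2%), but without plate 2 the *Tal1* difference was not called (log2 1.76, adjusted p = 0.103 with edgeR). *Ets1* and *Foxq1* were higher in mural than in neural cells (15.4%) and 0 were lower (17.7%). When each plate was left out in turn, 6 to 8 genes were higher in endothelial cells than in the mean of the other 3. In these fits 4 to 7 were higher than in mural cells or microglia. Against that mean, every member that passed the filter was called, but *Sox7* and *Erg* did not pass it each time. Of all genes tested, 647 of 6427 were higher than that mean without plate 1 and 653 of 6570 without plate 2. Against mural cells it was 308 and 316, and against microglia 735 and 743.

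At least 1 transcript of *Sox18* was found in 128 of 225 endothelial cells, or 56.9% (exact 95% interval 50.1 to 63.5). *Sox17* was found in 55.1% (48.4 to 61.7), *Erg* in 45.8% (39.1 to 52.5) and *Sox7* in 43.1% (36.5 to 49.9). Over the other 3 gates together, *Sox7*, *Sox17*, *Sox18* and *Erg* were found in 2, 3, 4 and 2 cells. In neural cells, which should lack these genes, the shares were 0.813% for each SOXF gene and 1.63% for *Erg*. *Erg* was found in 0 of 210 mural cells and 0 of 128 microglia, for which the upper 95% limits are 1.74% and 2.84%. The median depth was 6408 transcripts per endothelial cell, 6885 per mural cell, 10761 per microglia and 7717 per neural cell. After thinning every cell to 1500 transcripts, the endothelial shares of *Sox18*, *Sox17*, *Sox7* and *Erg* were 26.7%, 19.6%, 16% and 15.6%. By level, endothelial cells held 227 CPM of *Sox18*, 154 of *Sox17*, 127 of *Erg* and 118 of *Sox7*. By plate, *Sox18* had 252, 203 and 99.8 CPM and *Erg* 156, 97.4 and 0 CPM, where the third value is from the 13 cells of plate 3. These intervals take in counting error and nothing else.

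*Fli1* was found in 65.3% of endothelial cells (exact 95% interval 58.7 to 71.5) and 52.3% of microglia (43.3 to 61.2), in 7.62% of mural cells and in 1.63% of neural cells. After thinning to 1500 transcripts the endothelial and microglial shares of *Fli1* were 28.9% and 15.6%. Its level was 235 CPM in endothelial cells, 94.9 in microglia, 10.96 in mural cells and 2.07 in neural cells. Here the difference between endothelial cells and microglia was called (log2 1.17 ± 0.28, adjusted p = 0.000550 with edgeR), and without plate 1 it was 1.21 (adjusted p = 0.123). All 67 microglia with *Fli1* held at least 3 of the 8 microglial markers, and 6 of them (8.96%) also held at least 3 endothelial markers, against 0 of the 61 microglia without *Fli1*. The part of endothelial transcripts in this level was not tested.

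Mural cells held *Ets1* in 81.9% of cases (76.0 to 86.9) and endothelial cells in 76.0% (69.9 to 81.4), with 422 and 463 CPM. After thinning to 1500 transcripts the shares were 41.9% and 42.7%, so that their order turned. The 3 plates gave 386, 443 and 494 CPM in mural cells and 506, 418 and 285 CPM in endothelial cells, and the ranges overlap. The log2 difference was 0.14 ± 0.29 (adjusted p = 0.820 with edgeR), and without plate 3, where endothelial cells held 3067 CPM of mural markers, it was 0.23 (*Ets1* adjusted p = 0.365 with edgeR). In microglia *Ets1* was found in 33.6% of cells (25.5 to 42.5) at 40.9 CPM, and in neural cells in 3.25% at 4.14 CPM. All 172 mural cells with *Ets1* held at least 3 of the 8 mural markers, and 4 of them (2.33%) held at least 3 endothelial markers, as did 0 of the 38 mural cells without *Ets1*.

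*Foxq1* was found in 80.0% of endothelial cells (74.2 to 85.02) and 64.8% of mural cells (57.9 to 71.2), with 499 and 286 CPM. The plates gave 512, 509 and 228 CPM in endothelial cells and 285, 291 and 233 CPM in mural cells, so that the lowest value in each gate came from plate 3. After thinning to 1500 transcripts the shares were 44.9% and 31.0%. The difference was called (log2 0.86 ± 0.27, adjusted p = 0.0150 with edgeR) but was not called with DESeq2 (log2 0.82, adjusted p = 0.193), with no filter (log2 0.82, adjusted p = 0.110), without plate 1 (log2 0.72, adjusted p = 0.548) or without plate 2 (log2 0.80, adjusted p = 0.388). Without plate 3 it was called (log2 0.91, *Foxq1* adjusted p = 8.13e-05 with edgeR). In microglia and neural cells it was found in 4.69% and 3.25%. All 136 mural cells with *Foxq1* held at least 3 mural markers, and 3 of them (2.21%) held at least 3 endothelial markers, as did 1.35% of the 74 mural cells without *Foxq1*. Fibroblast markers were found 3 or more to a cell in 12 of 210 mural cells.

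*Tal1* was found in 36.4% of endothelial cells (30.2 to 43.1), 35.9% of microglia (27.7 to 44.9), 3.25% of neural cells (0.893 to 8.12) and 2.38% of mural cells (0.778 to 5.47). After thinning to 1500 transcripts the endothelial and microglial shares of *Tal1* were 9.33% and 7.81%. The levels were 79.2, 51.8, 13.5 and 3.87 CPM. The difference between endothelial cells and microglia was not called (log2 0.43 ± 0.32, adjusted p = 0.321 with edgeR). Endothelial cells were higher than neural cells (log2 2.63 ± 0.44, adjusted p = 1.57e-06 with edgeR), where the bulk libraries gave 0.06. The neural bulk libraries were made with another kit, and the cause of this gap was not tested. The 13 neural transcripts came from 4 of 123 cells, with up to 5 in 1 cell. *Gad1* and *Gad2*, which encode the enzymes that make GABA, were both found in all 4 of these cells, against 12.6% and 19.3% of the other 119 neural cells. *Gata3* was found in 4 of 4 and *Gata2* in 3 of 4, against 3.36% and 2.52% of the others. *Cldn5* was found in 0 of the 4 and 3.36% of the 119. These genes were chosen after the cells had been seen, and the 4 cells give a description only.

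**Figure D4:**
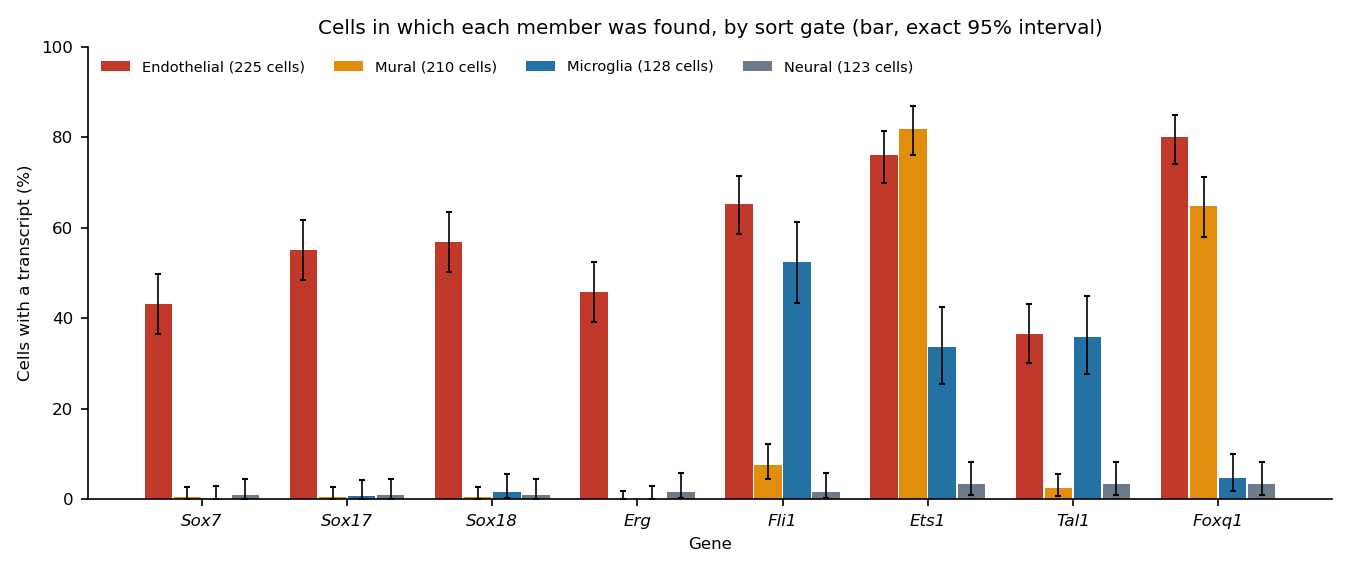
Percentage of cells with at least 1 transcript of each gene by sort gate, with exact 95% intervals that cover counting error only. *Sox7*, *Sox17*, *Sox18* and *Erg* are found in 43.1% to 56.9% of endothelial cells and in under 2% of cells of each other gate, while *Fli1* and *Tal1* are shared with microglia and *Ets1* and *Foxq1* with mural cells. *Ets1* is also found in 33.6% of microglia, where *Tal1* is found in 35.9%.

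Several of the 8 genes were found in the same endothelial cell. The median endothelial cell held transcripts of 5 of them, 152 of 225 cells (67.6%) held 4 or more and 17 held all 8. No cell of the other gates held 4 or more. The median was 2 in mural cells, 1 in microglia and 0 in neural cells. After thinning to 1500 transcripts 31 endothelial cells (13.8%) held 4 or more and 0 held all 8, and the medians were 2 in endothelial cells, 1 in mural cells and 0 in microglia and neural cells. All 3 SOXF genes were found in 60 endothelial cells (26.7%), and none of them in 54 (24.0%). *Sox17* with *Sox18* was the most frequent pair without the third gene, in 32 cells, and *Sox17* the gene most often found alone, in 25. Depth moved with detection, since endothelial cells with *Sox18* had a median of 8114 transcripts and those without it 4670. *Foxq1*, the gene found in most endothelial cells, was in 95.1% of the endothelial cells with *Tal1*, 94.8% of those with *Sox7*, 93.0% of those with *Sox18*, 91.1% of those with *Sox17* and 90.3% of those with *Erg*. In the cells with *Fli1*, *Ets1* was found in 88.4% and *Foxq1* in 87.1%.

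**Figure D5:**
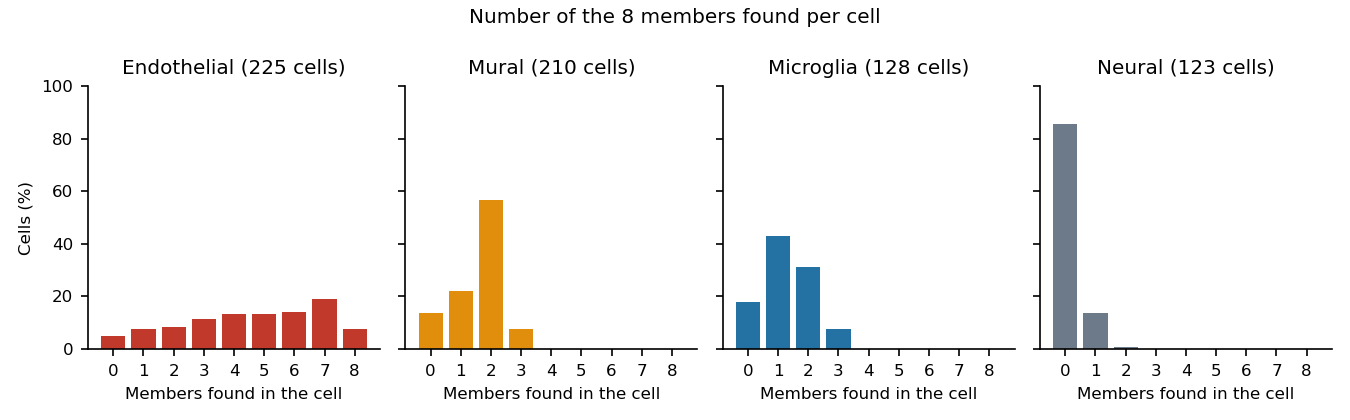
Number of the 8 genes found per cell, as a percentage of the cells of each sort gate. Endothelial cells spread from 0 to 8 with a median of 5, while no mural, microglial or neural cell holds more than 3.

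Other genes of the same families and pathways were counted in the bulk comparison of endothelial cells with the mean of the other 3, where 3892 of all genes tested were higher and 4430 lower with a median log2 difference of -0.12. Of 16 SOX genes outside SOXF, 13 were tested, 1 was higher and 6 lower, with a median of -1.38. *Sox13* was the 1 that was higher (log2 3.24 ± 0.40), and *Sox1*, *Sox3* and *Sox6*, known from neural progenitors, were the lowest, at -7.92, -4.31 and -4.08. Against neural cells alone, 11 of the 13 were lower and 0 higher, where 30.6% of all genes were called lower. *Sox11*, named after its values were seen, had means of 13029 in endothelial and 38699 in neural libraries.

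Of 23 ETS genes outside the 3 described, 17 were tested, 5 were higher and 3 lower, with a median of 0.20. *Elf5*, *Elk3* and *Ets2* had the highest differences, at 3.42, 2.24 and 1.60. *Elk3*, a ternary complex factor, had means of 4129 in endothelial, 1581 in mural, 1530 in microglial and 274 in neural libraries, while the highest mean of *Elf5* was 86.7 in endothelial libraries, where it ran from 21.3 to 186. *Spi1*, which encodes the myeloid factor PU.1, was the lowest at -4.38, with a mean of 12838 in microglia and means of 0.761 or less elsewhere, followed by *Etv5* and *Etv1*.

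Of 13 partners of TAL1 and other blood and endothelial factors, 11 were tested, 6 were higher and 2 lower, with a median of 0.50. *Lyl1*, the closest relative of *Tal1*, had means of 1437 in endothelial and 3296 in microglial libraries, 16.8 in neural and 0.761 in mural libraries. It thus followed *Tal1* in 3 populations and not in neural cells. *Lmo2*, which encodes a bridging protein of the TAL1 complex, had 8809 in endothelial, 3067 in microglial, 279 in mural and 189 in neural libraries (log2 4.01 ± 0.17). *Hhex* was higher by 4.03, with means of 1489 in endothelial, 2414 in microglial, 215 in mural and 0.369 in neural libraries. *Runx1*, at -5.37, and *Tcf12*, at -0.64, were the 2 that were lower.

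Of 11 forkhead and Wnt-linked factors of brain endothelium, all were tested, 9 were higher and none lower, with a median of 3.797. Among them were *Foxl2* (log2 9.05) and *Foxf2* (6.29). *Foxf2*, with means of 2983 in endothelial and 3080 in mural libraries, and *Foxc1*, with 1331 and 1683, were like *Foxq1* found in both vascular populations, with means of 5.56 or less in the others. *Foxl2*, in contrast, had 948 in endothelial libraries and 0 in mural libraries. Of 13 other vascular transcription factors, 7 were higher, 2 lower and 4 not called, with a median of 1.44, led by *Meox1*, *Epas1* and *Bcl6b* (6.34, 5.88 and 5.87). *Hey2* (-2.61, not called), *Prox1* (-2.45) and *Meox2* (-1.92, not called) were at the other end. *Epas1* had means of 12871 in endothelial and 10275 in mural libraries. Against mural cells alone, 5 of these 13 were higher and 5 lower, with a median of 0.26, where 14.3% and 13.5% of all genes were called.

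Of 22 endothelial genes that SOXF or ETS factors are known to bind, all 22 were higher, with a median of 8.39. *Cldn5*, which encodes the main claudin of the blood-brain barrier, *Aplnr* and *Robo4* had the highest differences (13.40, 12.20 and 11.10), and *Notch4*, *Dll4* and *Angpt2* the lowest (4.19, 5.53 and 5.60). This list was written with earlier results of these data known and includes *Pecam1* and *Icam2*, genes of the sorted proteins.

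The genes whose pattern was most like that of each member were found by the Pearson correlation over the 12 libraries on the log2 scale, given as a description since the libraries of 1 population share their level. *Robo4* was most like *Sox7* (r = 0.990), *Cldn5* most like *Sox17* (0.983), *Nos3* most like *Sox18* (0.975) and *Adgrl4* most like *Erg* (0.973). *Tnfaip2* was most like *Fli1* (0.995), *Tax1bp3* most like *Ets1* (0.996), *Frmd4b* most like *Tal1* (0.991) and *Tek*, the receptor of the angiopoietins, most like *Foxq1* (0.995). *Tek* had means of 9268 in endothelial and 1853 in mural libraries, and means of 3.51 or less in the others. Among the 8 genes, the pairs most alike were *Sox18* and *Erg* (0.954), *Sox7* and *Sox17* (0.948) and *Sox17* and *Erg* (0.923), and those least alike were *Tal1* and *Foxq1* (-0.53) and *Tal1* and *Ets1* (-0.51).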

How the data were processed

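Bulk RNA-seq of 12 libraries from 4 sorted populations and single-cell transcript tables of 3 wild-type plates were used, and the plates of the knockout genotype were not analysed here. The bulk table holds normalized counts, a signal that the authors made by dividing read counts per gene by a factor per library. The submitters' processing notes name the build mm10, BWA 0.6.2-r126, STAR, featureCounts and DESeq2. Whole reads were recovered from the size of 1 read in each library (124078 of 124078 values up to 100 reads were whole within 0.01). The deposited single-cell tables hold transcript counts that the authors corrected for repeated molecular identifiers (4096 possible), and all 1939327 values checked followed that correction.

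Bulk values were tested with limma 3.58.1 (R 4.3.3) on the log2 scale after adding 1 to each value, the prior variance being fitted as a trend, for the 19765 genes with a mean of at least 10, and p-values were adjusted after Benjamini-Hochberg over all of them, with a threshold of 0.05. Cells with more than 1500 transcripts were summed by gate and plate, rounded to whole numbers and tested with the quasi-likelihood test of edgeR 4.0.16. All tests were two-sided. DESeq2 1.42.0 was an alternative, as were other pseudocounts, minimum levels, quantile normalization, the replicate number as a block and each replicate left out. Intervals on shares are exact (Clopper-Pearson, 95%). The tests were checked on simulated data. The p-values rest on the spread between 3 brains (bulk) or 3 plates (single cells), taken for each gene over all 4 populations together. Libraries of populations outside a comparison, also those near 0, thus enter its SE. For *Fli1* between bulk endothelial cells and microglia the SE was 0.316, and 0.194 without the neural libraries. Bulk columns not used numbered 0.

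The members and all gene lists were chosen with earlier results of these data known. All 8 members were named, and from each other list the 3 highest and 3 lowest by log2 difference, plus genes that bear on a member. Some sequences and a list member are not reported here. Same-numbered brains did not deviate together (residual correlations -0.054 to 0.080), nor did plates (-0.026 to 0.085).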

Additional observations from a re-analysis of the deposited data

Results flagged for a closer look

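*Ets1* and *Foxq1* were also found in wells that no comparison used. In 23 cells from 25 wells of a PDGFRβ medium or low gate, *Ets1* had 60.9 CPM (10 transcripts in 5 cells) and *Foxq1* 30.5 (5 transcripts in 4 cells), above the 18.3 that a count of 0 allows there. The other 6 genes were at 0. In the same cells the mural genes *Rgs5* and *Pdgfrb* had 1657 and 128 CPM, and *Cldn5* and *C1qa* were at 0. The neural gene *Tubb3* had 67.1 CPM (11 transcripts in 3 cells) and the endothelial gene *Pecam1* 12.2 CPM (in 2 cells), below what a count of 0 allows. Groups held 3 libraries or plates each, and single samples were not tested for standing apart.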

How the results depend on the processing

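Of the counts of members called, those not named here stayed within 1.5 times their value under the alternatives run. In bulk libraries DESeq2 called 1 member lower in endothelial cells than in microglia, where limma called 0. The count of members lower in microglia than in neural cells, 1 with limma, was 0 with a pseudocount of 10 and 0 with quantile normalization, 2 with DESeq2, and 0 to 1 when each brain was left out. That of members lower in mural than in neural cells was 1 to 2 when each brain was left out. The endothelial level of *Ets1* was 7720 per kilobase of its longest transcript. The median number of members per endothelial cell was 2 after thinning, an alternative chosen after seeing the data.

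In all, 10 differences of members changed sign under an alternative, and all 10 were not called. They included *Tal1* between endothelial and neural libraries (log2 -0.051 to 0.26 when each brain was left out), *Ets1* between endothelial and mural cells (-0.15 to 0.23 when each plate was left out) and *Foxq1* between microglia and neural cells in single-cell sums (-0.060 with DESeq2, -0.0998 to 0.41 when each plate was left out). The others were of *Sox7*, *Sox17*, *Sox18* and *Erg* between populations other than endothelial cells, with values from -2.60 to 3.70. The cause was not tested. With the replicate number as a block, 8 members remained higher in bulk endothelial libraries and 7 in single-cell sums, and no count of members called changed. DESeq2 gave no adjusted p for *Erg* in bulk libraries.

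Over all genes, the bulk calls against the mean of the other 3 fell from 3892 higher and 4430 lower to 2265 and 2368 without neural libraries, and edgeR called 2483 lower. In single-cell sums 1521 higher and 646 lower became 882 and 188 with DESeq2. The median log2 difference of all genes in bulk libraries was -0.12, 0.01 with edgeR and 0.05 with DESeq2. Depth limits the shares of single cells, and 13 endothelial cells of plate 3 limit that plate.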
